A study of Mus musculus with 6 samples.

Results

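The Smc3 wt only peaks are the accessible regions that the Smc3 wt peak list holds on chromosomes 1 to 19 and that share no base with a row of the Smc3 het list. ATAC-seq marks accessible DNA, which a Tn5 transposase can reach to insert adapters. The members were chosen by their lack of overlap alone. By this rule 409 of the 14343 Smc3 wt peaks on these chromosomes were members (2.85%), and the other 13934 overlapped a Smc3 het peak. In the other direction 31736 of 45534 Smc3 het peaks (69.7%) overlapped no Smc3 wt peak. The count depended on the lists compared: it was 635 when 50% of the Smc3 wt peak had to be covered, 891 against Smc3 het peaks of -log10 q at least 5, 3173 against a Smc3 het list cut to equal length, and 228 or 39 among Smc3 wt peaks of -log10 q at least 3 or 5. The calls in both lists fix these shares, so neither is a result about them, and the strength of a member in its own list is given below as a description.

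The cells were labelled as hematopoietic stem and progenitor cells (HSPC) from lineage-depleted mouse bone marrow. The 3 Smc3 het libraries carried the genotype inv(16);Smc3 D/+ and the 3 Smc3 wt libraries inv(16);Smc3 +/+. Both groups thus shared the inv(16) allele, and both were labelled with viral transduction and a tamoxifen-induced Cre; age, sex and the promoter behind Cre are not given in the labels. The authors deposited 1 peak list per genotype and the lists used here hold no value per library. Differences between lists or sets therefore come without replicate checks, and no p-value is given. A list names only sites past the peak caller's threshold, so a site missing from the Smc3 het list has no measured level there.

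Cohesin is a ring-shaped complex, with SMC3 as a core subunit, that holds DNA loops together and pauses at sites bound by CTCF. In human acute myeloid leukemia, inv(16) fuses CBFB to MYH11 and disturbs the core-binding factor complex of RUNX1 and CBFB. Open chromatin in blood progenitors lies at promoters, which are often open in many cell types, and at enhancers, which lie inside and between genes and differ more between cell types.

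Few members lay on promoters, and the promoters they did touch are shown first because they are the members whose DNA sequence was at hand. RefSeq promoter windows of GRCm38.p6 (250 bases before to 50 after a start, the assembly behind mm10) were matched to peaks by position. On the autosomes with windows in the table, 18 of 399 members (4.51%, exact 95% interval 2.70 to 7.04) and 6310 of 13524 shared Smc3 wt peaks (46.7%, 45.8 to 47.5) shared bases with a window. The 18 members touched 22 of 31396 windows (0.0701%), which belonged to 21 genes, 15 of them protein-coding. The 5 windows printed here belong to Actg1 (gamma-actin, chr11:120348446-120348745, minus strand), S100a8 (a calcium-binding protein of neutrophil granulocytes, chr3:90668821-90669120, plus strand), Serpina3g (a serine protease inhibitor, chr12:104235897-104236196, plus strand), Sirpb1c (a signal-regulatory protein, chr3:15848438-15848737, minus strand) and Fmo5 (a flavin-containing monooxygenase, chr3:97628769-97629068, plus strand). Each is written 5′ to 3′ on the gene's strand, and capitals mark the bases inside the Smc3 wt only peak.
Actg1: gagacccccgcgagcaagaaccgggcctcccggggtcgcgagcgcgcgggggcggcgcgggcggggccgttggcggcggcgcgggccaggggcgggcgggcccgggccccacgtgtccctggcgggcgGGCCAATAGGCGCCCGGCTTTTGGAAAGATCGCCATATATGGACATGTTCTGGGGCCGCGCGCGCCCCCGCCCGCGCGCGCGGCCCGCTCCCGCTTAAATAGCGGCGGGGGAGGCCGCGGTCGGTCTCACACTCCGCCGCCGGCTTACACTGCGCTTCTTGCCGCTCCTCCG
S100a8: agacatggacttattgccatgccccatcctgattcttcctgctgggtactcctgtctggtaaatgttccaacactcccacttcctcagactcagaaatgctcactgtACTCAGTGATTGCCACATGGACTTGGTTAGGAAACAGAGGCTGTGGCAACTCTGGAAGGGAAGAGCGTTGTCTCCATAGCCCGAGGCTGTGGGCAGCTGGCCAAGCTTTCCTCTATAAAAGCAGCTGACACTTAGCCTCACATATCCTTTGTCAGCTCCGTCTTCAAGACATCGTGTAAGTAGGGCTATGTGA
Serpina3g: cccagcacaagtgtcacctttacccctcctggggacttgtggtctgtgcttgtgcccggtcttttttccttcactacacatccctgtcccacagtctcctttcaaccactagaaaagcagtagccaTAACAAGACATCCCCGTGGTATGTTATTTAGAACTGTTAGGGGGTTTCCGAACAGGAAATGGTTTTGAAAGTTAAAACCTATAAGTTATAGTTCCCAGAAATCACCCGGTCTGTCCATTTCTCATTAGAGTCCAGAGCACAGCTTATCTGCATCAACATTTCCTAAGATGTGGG
Sirpb1c: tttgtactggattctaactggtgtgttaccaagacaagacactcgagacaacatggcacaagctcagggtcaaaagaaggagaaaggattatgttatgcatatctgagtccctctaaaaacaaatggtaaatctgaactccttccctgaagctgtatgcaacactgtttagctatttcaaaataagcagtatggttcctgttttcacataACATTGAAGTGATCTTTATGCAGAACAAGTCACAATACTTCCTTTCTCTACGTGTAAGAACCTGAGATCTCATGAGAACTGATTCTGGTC
Fmo5: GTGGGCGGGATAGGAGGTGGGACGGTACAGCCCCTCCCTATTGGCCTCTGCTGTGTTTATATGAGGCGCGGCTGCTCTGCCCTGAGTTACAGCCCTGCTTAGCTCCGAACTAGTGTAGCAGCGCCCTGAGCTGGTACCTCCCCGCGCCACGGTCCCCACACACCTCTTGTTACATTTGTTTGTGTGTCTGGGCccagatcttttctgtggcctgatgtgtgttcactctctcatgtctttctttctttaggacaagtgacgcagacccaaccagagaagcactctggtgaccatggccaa

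The windows differed in how the peak sat on them and in base composition. At S100a8 the peak held 193 of the 300 bases and ran over the start at 90669071, and at Fmo5 it held 193 bases and ended before the start at 97629019. At Actg1 it held 172 bases, at Serpina3g 174 and at Sirpb1c 90. The Actg1 window was 77.3% G or C with 50 CpG dinucleotides, whereas Sirpb1c was 39.0% with 2 and S100a8 50% with 4. Over the 22 windows the G or C content ran from 39.0% to 86.0% (median 61.8%), beside a median of 62.7% for the 8349 windows under a shared Smc3 wt peak and 53.0% for all windows. Their median number of CpG was 14.5, beside 24 under shared peaks and 7 over all windows.

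Motifs were searched in these windows on both strands by exact letters. Some windows overlap, as at Actg1, Cul3, Ptprj and Slc7a7, so a peak was counted once if any window it touched held the letters. The letters could lie in window bases outside the peak, as the CTCF core letters did at Cul3 and Slc7a7. The CTCF core letters AGGGGGC were in windows of 3 of 18 members (16.7%, 3.58 to 41.4) and of 18.1% of the 6310 shared peaks. The ETS letters CCGGAAG were in 0 of 18 (0 to 18.5%) and 24.2% of shared peaks. For the PU.1-type ETS letters GAGGAAG, which a window can hold besides the former, the shares were 5 of 18 (27.8%, 9.69 to 53.5) and 14.0%. GATA letters (AGATAA) were in 4 of 18 (22.2%, 6.41 to 47.6) and 5.37%, and RUNX letters (TGTGGT) in 3 of 18 and 13.7%. SP/KLF letters (GGGCGG) were in 9 of 18 (26.0 to 74.0%) and 73.3%, and the NFY letters CCAAT in 4 of 18 and 44.5%. AP-1 letters (TGANTCA) and CEBP letters (TTGCNNAA) were in windows of 1 member each, beside 4.58% and 8.51% of shared peaks. The E-box letters CAGATG were in those of 0 members, beside 11.1%. Of all 31396 windows, 10.7% held the CTCF core letters, 9.0% the ETS, 13.4% the PU.1-type, 11.2% the GATA, 16.7% the RUNX, 36.0% the SP/KLF, 37.3% the NFY, 7.84% the AP-1, 10.9% the CEBP and 17.2% the E-box letters. The shares of all windows are per window, whereas those of members and shared peaks are per peak, and a peak can touch several windows. With 18 members the intervals are wide, and a match is no evidence of a bound factor.

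Members were weak peaks of the Smc3 wt list. Their deposited fold over background ran from 1.72 to 4.04 with a median of 2.59, and their -log10 q from 1.33 to 22.4 with a median of 3.03, while the shared peaks had medians of 3.91 and 10.6. Only 39 of the 409 reached a -log10 q of 5. The summit pileup, the height of the signal the peak caller used there, was recovered from the fold and the p-value. Whether it counts reads or fragments, and whether it was scaled, is not known here. The pileup had a median of 26 in members and 42 in the 13857 shared peaks where it could be recovered. In 332 members it was 30 or less. For a pileup of 27, as at S100a8, the exact Poisson 95% interval is 17.8 to 39.3, which covers counting error only. That interval takes the pileup as an unscaled count. The lowest pileup that gave a peak over the genome-wide background was 21 in Smc3 wt (background 8.65, fold 2.28) and 23 in Smc3 het (background 10.6, fold 2.07). Depth is unknown, so these values serve within each list and are not on a shared scale. Sorted by -log10 q, the Smc3 wt list held 0, 0, 1, 1 and 0 members in its first 5 deciles of 1434 or 1435 peaks, 99 in the ninth (6.90%) and 243 in the last (16.9%, 15.0 to 19).

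**Figure D1:**
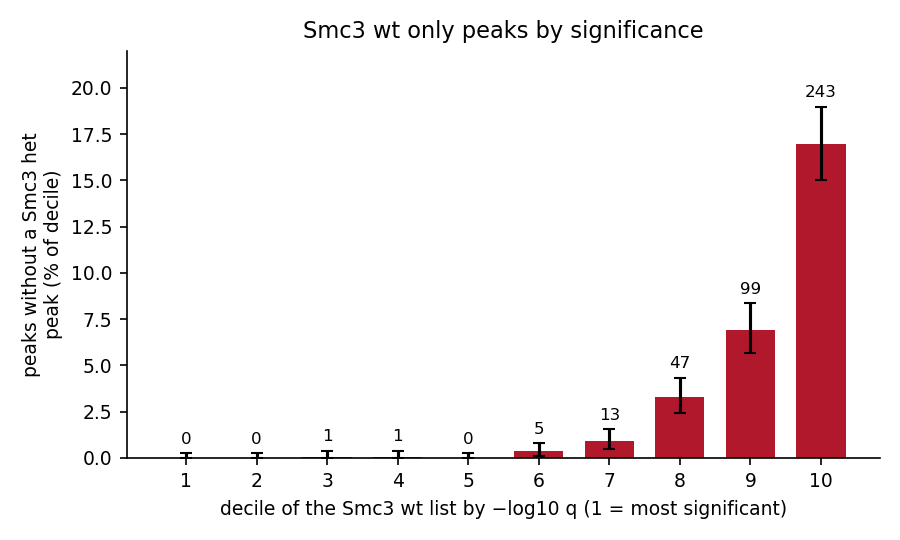
Share of Smc3 wt peaks on chromosomes 1 to 19 without an overlapping Smc3 het peak (y axis, percent of the decile) against the decile of the list by -log10 q (x axis, 1 = most significant). Bars give the share, lines exact 95% intervals and numbers the count of members; the count goes from 0 in the first decile to 243 in the last.

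The strongest member lay inside Sfi1, a gene for a centrin-binding spindle protein (chromosome 11, 3179709 to 3180041). It had a -log10 q of 22.4 and a pileup of 178 over a local background of 71.4, which was 8.25 times the genome-wide background, so its fold was only 2.47. The next lay 18726 bp from Gm10354 on chromosome 5 (14997681 to 14997923), with a -log10 q of 15.2, a pileup of 77 and a local background 2.66 times the genome-wide one. The next was a peak inside Rims1, which encodes a protein of synaptic vesicle release (chromosome 1, 22327683 to 22327980), with a pileup of 38, the highest fold of all members at 4.04 and no raised background. That peak was also far from any other, 172517 bp from the nearest Smc3 het peak. After it came a peak 248788 bp from the homeobox gene Hlx (-log10 q 9.65), the Fmo5 peak shown above (9.54) and a peak 12954 bp from the immediate early gene Ier5 (9.15) over the start of the noncoding Gm9530. The first 10 ended with peaks near Zfp213 (7.89), inside Arhgef33 (7.15), 7514 bp from the ubiquitin ligase gene Trim56 (7.15) and 1904 bp from Gm21190 (7.15).

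Most members lay away from gene ends. A gene end means 1 kb or less from where a protein-coding gene starts or stops, since the gene table gives no strand. Of the 409 members 38 lay at a gene end (9.29%, interval 6.66 to 12.5), 184 elsewhere inside a gene (45.0%, 40.1 to 50) and 187 between genes (45.7%, 40.8 to 50.7). Shared Smc3 wt peaks had 52.8% (51.9 to 53.6) at a gene end, 25.9% inside and 21.3% between genes. Part of that gap went with peak strength: shared peaks weighted to the members' -log10 q bins had 25.5% at a gene end, 39.9% inside and 34.6% between genes. In every bin, the share at a gene end was lower in members than in shared peaks, by amounts that varied. At -log10 q of 3 to 3.5, the bin with the most members, it was 10.5% of 95 members and 21.5% of 785 shared peaks. At 4 to 5 it was 3.85% of 52 members and 29.5% of 1041 shared peaks. Smc3 het only peaks resembled the members more, with 13.8% (13.5 to 14.2) at a gene end, 42.6% inside and 43.6% between genes. With the Smc3 het list cut to equal length, 22.2% of the then 3173 members lay at a gene end, and the share was 15.4% when all annotated genes counted, 26.4% within 5 kb and 5.87% within 500 bp. Peaks of one locus are not independent samples, so these shares are set side by side without a test.

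**Figure D2:**
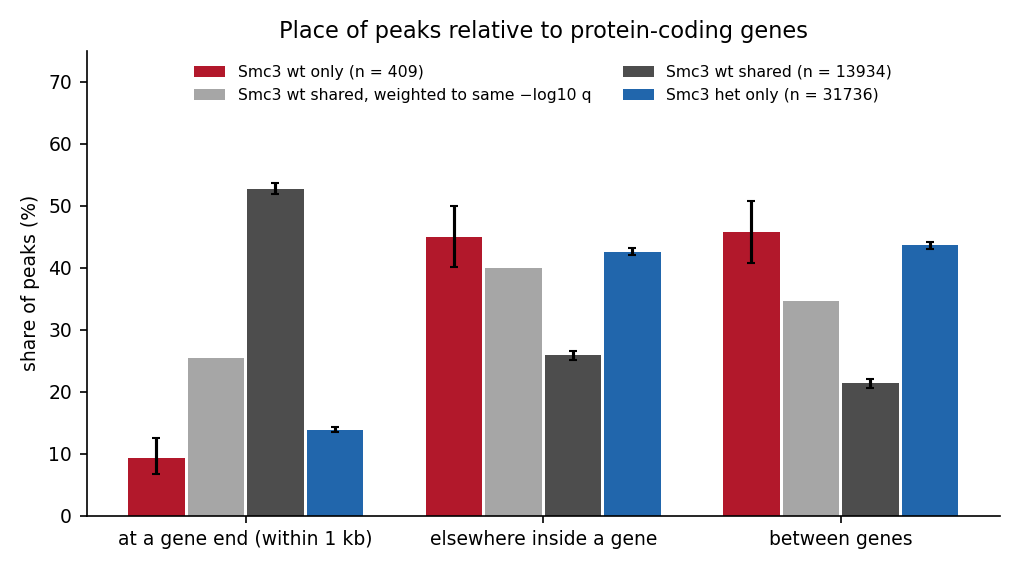
Share of peaks (y axis, percent) by place relative to protein-coding genes (end, inside or between) for 4 sets: Smc3 wt only, Smc3 wt shared weighted to the same -log10 q bins, all Smc3 wt shared and Smc3 het only. Lines are exact 95% intervals, not given for the weighted set; at gene ends the Smc3 wt only bar is the lowest at 9.29%.

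RefSeq starts, listed for 80.3% of protein-coding genes and for none on chromosome 18, told promoters from 3′ ends. On the other 18 autosomes 8 of 399 members (2.01%, 0.870 to 3.91) lay over a listed protein-coding start and 31 (7.77%, 5.34 to 10.8) within 1 kb of one. The corresponding shares were 41.2% and 48.7% of shared Smc3 wt peaks and 4.61% and 10.8% of Smc3 het only peaks. The 8 starts were those of Actg1, Pacsin2 (a membrane-bending adaptor protein), S100a8, Dmrta1 (a DM-domain transcription factor), Gm10471, Shisa4, Sirpb1c and Serpina3g. By place, the Pacsin2 member counted as inside a gene and not at a gene end, as did the Fmo5 member shown above. At 5 of these genes (S100a8, Gm10471, Shisa4, Sirpb1c and Serpina3g) the member was the single peak of the gene in either list, each peak being given to its nearest gene. At the other 3 both lists held further peaks. With the member counted, there were 2 in Smc3 wt and 4 in Smc3 het at Actg1, 2 and 5 at Pacsin2, and 3 and 7 at Dmrta1. The Shisa4 peak (chromosome 1, 135374903 to 135375277) had a -log10 q of 3.16, Dmrta1 3.49, Pacsin2 3.96, Actg1 5.61 and Serpina3g 1.76, all below the shared median of 10.6.

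Of 6 members that touched a protein-coding promoter window without covering its start, 4 lay within 1 kb of a Smc3 het peak. One was at the phosphatase gene Ptprj, 125 bp away. At Cul3, a scaffold of ubiquitin ligases, the member (chromosome 1, 80340275 to 80340671) stopped 251 bp from a Smc3 het peak with a -log10 q of 29.0. The member at Mapk14, which encodes p38 alpha kinase, was 412 bp from one with 3.35, and that at Egln1, an oxygen-sensing prolyl hydroxylase, 805 bp from one with 4.07. The other 2 were the Fmo5 and Slc7a7 members, at 3122 and 8682 bp. At ends of the transcription factor genes Maf and Ahr, without a promoter window, a member was 368 and 356 bp from a Smc3 het peak.

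Distance to the Smc3 het list covered 5 orders of magnitude. The median gap between facing edges was 5205 bp (interval of the median 4267 to 6383), the quartiles were 1000 and 18387 bp and the range was 1 to 404265 bp. The median depended on the rule: it was 771 bp when 50% of the Smc3 wt peak had to be covered, 8514 bp without members within 500 bp, 12619 bp against Smc3 het peaks of -log10 q at least 5, and 27534 bp against a Smc3 het list of equal length. A Smc3 het peak lay within 100 bp of 18 members and within 500 bp of 74, and 41 members were 50 kb or more from any. Of the members, 99 had a Smc3 het peak within 10 kb on both sides. The nearest Smc3 het peak had a median -log10 q of 5.47 and a median width of 306 bp. These medians were 4.67 and 246 bp for all Smc3 het only peaks, and 24.8 and 641 bp for Smc3 het peaks that overlapped a Smc3 wt peak. Among the 74 members within 500 bp, the nearest Smc3 het peak overlapped another Smc3 wt peak in 20, so those members stood beside a site open in both lists.

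At the edge of the rule, the closest members were 1 bp from a Smc3 het peak near Tbx19 (a T-box factor gene), 7 bp near 3110040M04Rik, 14 bp near Prdm16, 20 bp inside Cntnap3 and 27 bp near Tmco5, with -log10 q from 2.59 to 4.09. Just outside it, Smc3 wt peaks shared 3 bp with a Smc3 het peak near Marchf10 (-log10 q 3.03), 6 bp near Gm40469 (6.73) and 8 bp near Myc (2.59). The farthest members were 404265 bp away near Arrdc3, 353559 bp near the GATA-type repressor gene Trps1, 292676 bp inside Samd5, 273868 bp near Mpdz and 264647 bp at Sirpb1c. Those 5 had pileups of 22 to 28 and no raised local background.

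**Figure D3:**
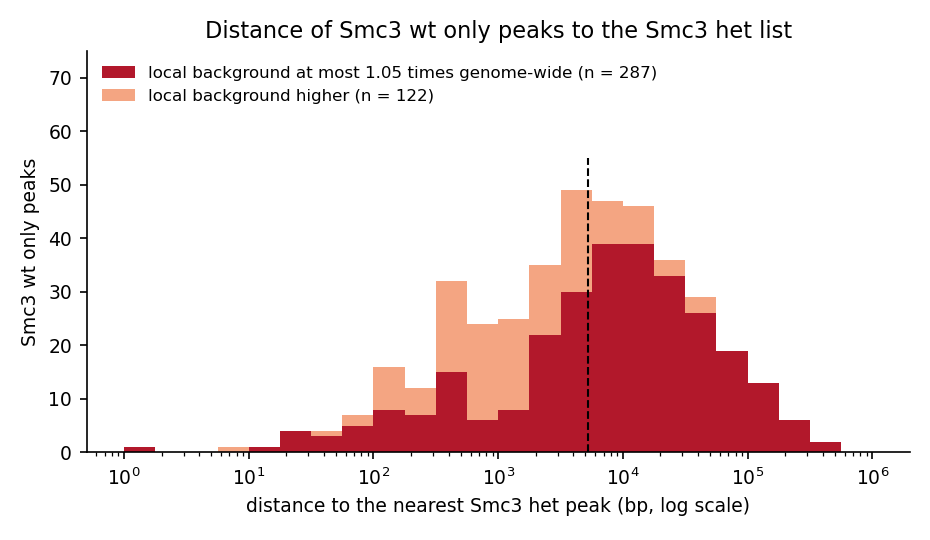
Number of Smc3 wt only peaks (y axis) by distance to the nearest Smc3 het peak (x axis, bp, log scale), stacked by whether the recovered local background was more than 5% above the genome-wide one. The dashed line is the median of 5205 bp; the 122 members with a higher background include 109 nearer than 10 kb.

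Local background moved with this distance. It was raised, meaning more than 5% above the genome-wide value, in 122 of 409 members (29.8%, 25.4 to 34.5), 53.4% of all shared peaks, 30% of shared peaks weighted to the same -log10 q and 31.6% of Smc3 het only peaks. By distance the share was 31 of 74 under 500 bp (41.9%), 78 of 184 from 500 bp to 10 kb (42.4%) and 13 of 151 at 10 kb or more (8.61%). Without these 122 members the median distance was 9700 bp. A background over 2 times the genome-wide value was found in 27 members (6.60%, 4.4 to 9.46) and in 3.18% (2.89 to 3.48) of all shared Smc3 wt peaks. The share was 2.05% (1.90 to 2.21) of Smc3 het only peaks and 5.53% (5.15 to 5.93) of Smc3 het peaks that overlapped a Smc3 wt peak.

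Members were narrow. Their median width was 261 bp (interval of the median 252 to 270) with quartiles of 231 and 314 bp, against 427 bp in shared Smc3 wt peaks and 302 bp in shared peaks weighted to the same -log10 q. Of the members 69.4% were under 300 bp, against 23.9% of all shared peaks. The narrowest member was 208 bp, the least width of the list. The 5 widest were 864 bp at 29937 bp from the olfactory receptor gene Olfr724, 714 bp inside Lrba (a vesicle trafficking protein), 601 bp inside the inner nuclear membrane gene Lemd3, 557 bp at an end of Phf21b and 550 bp inside the retinoic acid receptor gene Rarb. Their -log10 q lay between 2.59 and 4.54, so the widest members were not the strongest. In all, the members covered 116 kb of the 6992 kb in the Smc3 wt list.

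For the 194 members outside genes the nearest protein-coding gene was 136 to 1042192 bp away, with a median of 18232 bp (13788 to 26133), beside 16284 bp for shared and 24285 bp for Smc3 het only peaks outside genes. More than 100 kb from any gene lay 38 members (9.29%, 6.66 to 12.5), 4.19% of shared peaks and 11.1% of Smc3 het only peaks. Other annotated features lay under 59 members: a long noncoding RNA in 47, a pseudogene in 7, a transcribed pseudogene in 4 and, for 1 member each, a tRNA gene and a feature classed as other. The tRNA gene, n-TKctt29, lay under a member 11540 bp from Osbp (chromosome 19, 12005654 to 12006109) with a -log10 q of 5.77. None of the 1005 RefSeq microRNA hairpins at hand lay under a member.

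The 409 members were nearest to 376 genes, 1.83% of the 20560 protein-coding genes on these chromosomes. Of 191 blood, cohesin and marker genes in 16 lists, 7 were nearest to a member (3.66%): Fli1, Cbfa2t3, Prdm16, Pim1, Elane, Csf2rb and S100a8. The other 184 were not, among them every cohesin, monocyte, erythroid, megakaryocyte, mast cell, B, T and NK, dendritic, stromal and unrelated-tissue gene of the lists on these chromosomes. Many of these lists had few peaks of any kind in Smc3 wt, such as 4 for erythroid, 4 for neutrophil and 0 for B cell genes. The stem-cell lists had more, with 36 Smc3 wt peaks at 15 ETS and stem-cell factor genes and 32 at 25 self-renewal genes. With few peaks at many of these genes, the peak lists cannot show which cell types were absent.

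Among the granulocyte-monocyte progenitor markers 2 of 14 genes (Elane and Csf2rb) were nearest to a member, and among the neutrophil markers 1 of 12 (S100a8). The core-binding factor list had 1 of 6, the ETS and stem-cell factors 1 of 15, the kinase list 1 of 20 and the self-renewal list 1 of 25. S100a8 had its peak over the start with a fold of 2.90, a -log10 q of 3.96 and the nearest Smc3 het peak 9048 bp away. Elane, which encodes neutrophil elastase, had a member 1449 bp from the gene, on the upstream side (chromosome 10, 79884637 to 79884863), with a -log10 q of 4.11, a local background 1.23 times the genome-wide one and a Smc3 het peak 512 bp away. That Smc3 het peak, with a -log10 q of 3.66, is nearer to another gene, so Elane counted 1 Smc3 wt and 0 Smc3 het peaks although the peaks of both lists stood 512 bp apart. Csf2rb, the shared receptor subunit for IL-3 and GM-CSF, had a member 4686 bp from the gene with a -log10 q of 4.19. The Smc3 het peak nearest to it, with 18.7, was 4602 bp away over one end of Csf2rb.

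At the other 4 genes the members lay within 1 kb of a Smc3 het peak. Fli1, an ETS factor of blood stem cells, had a member inside the gene with a -log10 q of 3.51, 272 bp from a Smc3 het peak with 10.9 that also overlapped another Smc3 wt peak. Pim1, a survival kinase induced by cytokines, had one 89 bp from a 997 bp wide Smc3 het peak with a -log10 q of 28.0. Prdm16, a transcription factor of stem cells, had one 4065 bp from the gene with 3.03, 14 bp from a Smc3 het peak with 3.63. Cbfa2t3, a corepressor of the ETO family, had one 36715 bp from the gene with 2.23, 815 bp from a Smc3 het peak with 3.73. Smc3 het only and Smc3 wt only peaks numbered 12 and 1 at Fli1, 7 and 1 at Cbfa2t3, 3 and 1 at Pim1 and 1 and 1 at Prdm16, beside 31736 and 409 over all genes.

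A small share of the members stood in runs. Joined where they lay within 100 kb of each other, 29 members formed 8 runs of 3 or more, 334 stood alone, and 46 were in pairs. The 2 largest runs held 5 members each on chromosome 5, one near Gm9758 and Gm10354 (14903490 to 14997923) and one near Gm21149 and Gm21190 (15470187 to 15542733). The first held 23 Smc3 wt and 39 Smc3 het peaks in 94.4 kb, and the second 17 and 25 in 72.5 kb. On chromosome 4 there were 3 runs of 3 members at zinc finger genes, near Zfp981 and Zfp993, Zfp978 and Zfp988, and Zfp534 and Zfp984. The remaining runs lay near Sprr2a2 and Sprr2a3, genes of the skin's cornified envelope (chromosome 3, 4 members), Gm7592 (chromosome 1, 3 members) and Gm3072 and Gm8068 (chromosome 14, 3 members). Raised local background was found in 28 of the 29 members in runs (96.6%) and in 94 of the 380 others (24.7%). Its part in the calls was not tested. Where such genes share sequence, the copy a peak belongs to is uncertain, since mapping filters are not known here.

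**Figure D4:**
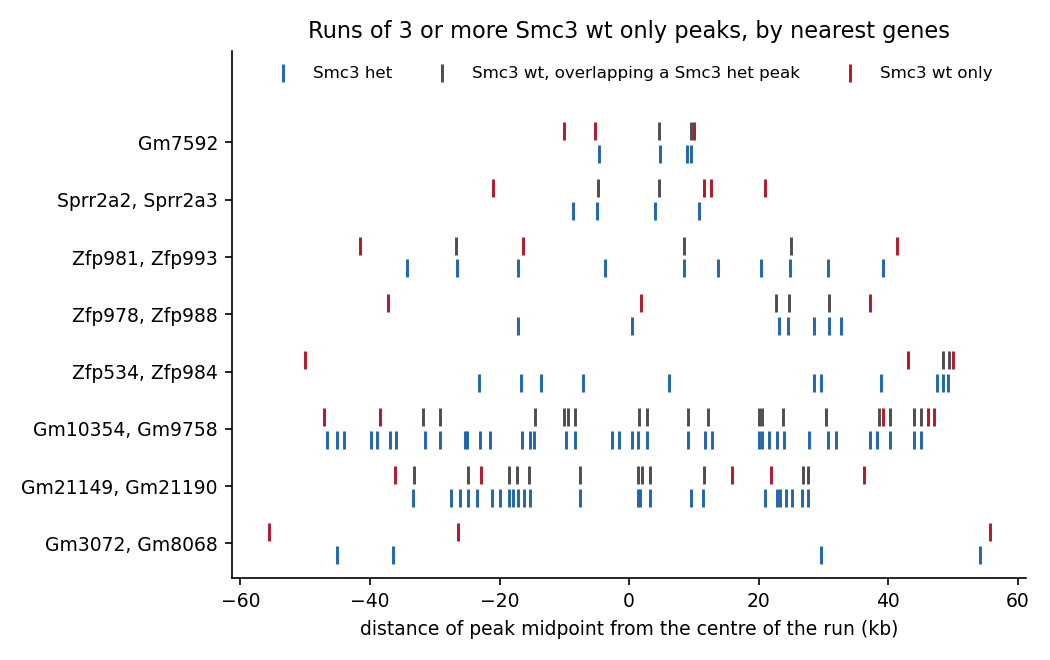
Peaks in the 8 runs of 3 or more Smc3 wt only peaks, one row per run named by its nearest genes; the x axis is the distance of each peak's midpoint from the centre of the run (kb). Upper marks are Smc3 wt peaks (red without, grey with an overlapping Smc3 het peak) and lower marks Smc3 het peaks. Every row holds between 4 and 39 Smc3 het peaks, and by the rule none overlaps a red mark.

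By symbol, zinc finger genes (Zfp) were nearest to 22 members (5.38%, 3.4 to 8.03), 2.75% (2.48 to 3.03) of shared Smc3 wt peaks and 2.16% (2.00 to 2.33) of Smc3 het only peaks. Gene models without a functional name (Gm numbers and Rik) were nearest to 55 members (13.4%, 10.3 to 17.1), 4.31% of shared and 5.20% of Smc3 het only peaks. Of these 55, 16 were in runs and 34 had a raised local background, and of the 22 at zinc finger genes 9 and 13 did. In all, 5 genes were nearest to 3 or more members, namely Gm7592 (5 members), Zfp993 (4) and Zfp978, Gm10354 and Gm21190 (3 each). Olfactory receptor genes had 3 members, vomeronasal receptor genes 2, solute carrier genes 5 and ribosomal protein and protocadherin genes 1 each. Beside these shares of 0.733%, 0.489%, 1.22%, 0.244% and 0.244%, Smc3 het only peaks had 0.684%, 0.479%, 2.10%, 0.252% and 0.315%.

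Every autosome held members, from 7 on chromosome 16 to 36 on chromosome 4. The share of a chromosome's Smc3 wt peaks that were members ran from 1.42% (0.713 to 2.54) on chromosome 9 to 3.72% (2.59 to 5.16) on chromosome 1. Of the 19 chromosomes, chromosome 9 was the single one whose interval did not include the 2.85% over all of them. Chromosomes 4 and 5, with 36 and 35 members, held 9 and 10 of the 29 members in runs.

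**Figure D5:**
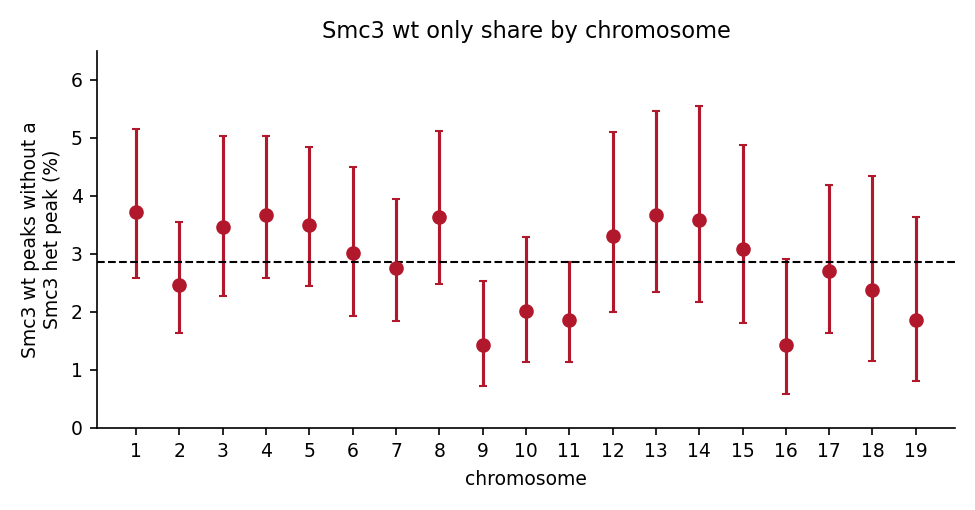
Share of Smc3 wt peaks without an overlapping Smc3 het peak (y axis, percent) on each of chromosomes 1 to 19 (x axis), with exact 95% intervals. The dashed line is the 2.85% over all 19; the lowest share is 1.42% on chromosome 9 and the highest 3.72% on chromosome 1.

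Members lay at a median distance from other Smc3 wt peaks like that of shared peaks, and more of them were isolated. The nearest other Smc3 wt peak was a median of 25625 bp away (interval of the median 19224 to 33927), against 23404 bp for shared peaks, and was itself a member for 33 of the 409. Within 1 kb of another Smc3 wt peak lay 34 members (8.31%) and 7.84% of shared peaks, and 88 members (21.5%, 17.6 to 25.8) and 14.6% of shared peaks were 100 kb or more from any.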

How the data were processed

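ATAC-seq peaks of 6 libraries (3 per genotype, grouped by title) were analysed as the 2 lists the authors deposited, with no header and 10 columns; peak names tie each to a genotype. The submitters' processing notes name Bowtie2, MACS2 and mm10. The sources used here do not give pooling, a control track, filters, the Tn5 shift or versions. The authors' deposited values per peak are an integer score (not used further), a fold (ratio of summit to background), -log10 p-value and -log10 q, and a summit offset. These are the authors' and serve only within a list. Depth is unknown.

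Starts were converted to 1-based. Summit pileup k and background b were recovered from fold = (k + 1) / (b + 1) and the Poisson p-value, which matched within 0.01 for 99.5% of Smc3 wt and 99.7% of Smc3 het peaks, and assumes the peak caller's usual pseudocount of 1. Gene spans and promoter windows were RefSeq's (GRCm38.p6). Autosomal genes placed before 3 Mb, where the lists hold no peak, were left out, leaving 21782 protein-coding genes. Ties for the nearest gene went to the gene with the closest end, then to the shorter gene. Promoter entries of opposite strands matched as reverse complements in 1911 of 1911 overlapping pairs. Share intervals are exact (Clopper-Pearson) 95%, those of medians binomial, and cover counting error only. Distances and pileup recovery were tested on simulated data, the former against bedtools 2.31.1, with Python 3.11.15, numpy 2.4.6, pandas 2.3.3 and scipy 1.17.1.

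Members, gene lists, motifs and the rule for named genes were chosen with earlier results of these data known. Named are genes of the 10 strongest, 5 widest, 5 farthest and 5 nearest members, of listed starts, of runs, of lists and with 3 or more members; genes near other members at promoters (Cul3, Ptprj, Slc7a7, Mapk14, Egln1, Maf, Ahr) and Osbp were added after their values were seen. Alternatives covered overlap, thresholds, list length, chromosomes, runs, gene set, window and, chosen after seeing the data, local background.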

Additional observations from a re-analysis of the deposited data

Results flagged for a closer look

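Smc3 wt only peaks also occurred outside chromosomes 1 to 19. By the same overlap rule 17 lay on chromosomes X and Y and 7 on unplaced scaffolds, which together with the 409 make 433. They are listed because they lie in rows that the comparisons above do not use, and no level in control samples was at hand to set them against. They entered none of the shares above except where the alternatives add chromosomes X and Y.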

How the results depend on the processing

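Of 71 alternative values for the members 44 stayed within the main counting interval (counts within 1.5 times) and 27 moved; the shared and Smc3 het only sets were not recomputed. With an overlap of at least 50% of the Smc3 wt peak the rule gave 635 peaks, 13.4% at a gene end, and medians of 278 bp width, 3.18 for -log10 q and 771 bp to Smc3 het. With Smc3 wt -log10 q of at least 3 it gave 228 peaks with medians of 277 bp and 3.96, and of at least 5, 39 peaks with 306 bp, 6.03 and a distance of 3593 bp. With Smc3 het partners of -log10 q at least 5 it gave 891 peaks, 13.2% at a gene end, a median -log10 q of 3.25 and a distance of 12619 bp. With the Smc3 het list cut to equal length it gave 3173 peaks, 22.2% at a gene end, 38.8% inside genes, and medians of 298 bp, 3.96 and 27534 bp. Counting Smc3 het peaks within 500 bp as shared moved the median distance to 8514 bp, and leaving out raised local background moved it to 9700 bp. The gene-end share was 15.4% with all annotated genes, 5.87% within 500 bp and 26.4% within 5 kb. Thresholds, overlap and windows change these values by construction. No paired analysis was possible because the lists hold no values per library, so leaving out libraries was not run either. With summit pileups of 21 to 30 in most, a site just under the threshold of the other list cannot be told from one without signal.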
